A study of Mus musculus with 57 samples.

Results

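The genes described here are the transcripts encoded by the mouse mitochondrial genome, taken as every gene whose name starts with mt-. There were 35 of them among the 56332 genes of the table: 13 protein-coding genes, 2 ribosomal RNAs (rRNAs) and 20 transfer RNAs (tRNAs). Each protein-coding gene is called a messenger RNA (mRNA) here, also where genes overlap on the same strand and can lie on the same transcript. The annotation holds 37 mitochondrial genes, and mt-Tq and mt-Ts1 were not analysed here. They were read in 57 RNA-seq libraries of bone marrow from male C57BL/6 mice that were 8 weeks old and had been given either an anti-PAPP-A antibody (aPAPPA in the labels) or a control for 4 weeks. PAPP-A, encoded by Pappa, is a secreted protease that cleaves insulin-like growth factor binding proteins. Marrow was sequenced unsorted (whole bone marrow, WBM, 4 control libraries) or sorted into mesenchymal stromal cells (MSC, 6 control and 4 treated), haematopoietic stem cells (HSC, 3 and 4), common lymphoid progenitors (CLP, 4 and 4), granulocyte-monocyte progenitors (GMP, 4 and 4), megakaryocyte-erythroid progenitors (MEP, 4 and 4) and Myeloid cells (6 and 6). Each library came from 1 pool of mice, numbered in the labels. The labels do not give the number of mice in a pool, and no allele or transgene is named for any group.

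The mitochondrial genome is a small circle that is transcribed from both of its strands into long precursors. The tRNAs lie between most of the mRNAs and rRNAs, and cutting them out releases the other transcripts. The 13 mRNAs encode core subunits of the respiratory chain and of ATP synthase: 7 of complex I (mt-Nd1 to mt-Nd6 and mt-Nd4l), cytochrome b of complex III (mt-Cytb), 3 of complex IV, cytochrome c oxidase (mt-Co1 to mt-Co3), and 2 of complex V, ATP synthase (mt-Atp6 and mt-Atp8). The rRNAs mt-Rnr1 and mt-Rnr2 form the small and large subunits of the mitochondrial ribosome. All other respiratory chain subunits, and all proteins of that ribosome, are encoded in the nucleus. Erythroid precursors need mitochondria to make haem, whereas mature neutrophils, the main cell of myeloid marrow, hold few and rely largely on glycolysis.

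Library totals ran from 107412 to 125537299 counts, and 4 libraries held under 1000000 counts: HSC aPAPPA pool 6, MSC control pool 7, MSC aPAPPA pool 8 and CLP control pool 5. In 4 libraries the nuclear 45S rRNA precursor took over 5% of counts: CLP control pool 1 (5.65%), MSC control pool 7 (14.6%), Myeloid control pool 11 (9.92%) and Myeloid aPAPPA pool 10 (13.4%). The defining markers of each sorted population had their highest summed level in that population. Myeloid markers were detected in every other population, with summed levels of 330 to 13231 CPM (counts per 1000000 counts of the library) in sorted libraries that were not Myeloid. GMP markers summed to 2840 to 13276 CPM in control CLP (30116 to 37638 in control GMP), where the CLP markers summed to 2434 to 3710 CPM. The part of these markers in the CLP comparisons was not tested. Plasma cell markers summed to 652 to 41897 CPM in control MSC (median 1370) and 522 to 19435 CPM in treated MSC (median 1128). By the batch labels, HSC, CLP, GMP and MEP were all in batch A and batch B held Myeloid only. MSC and WBM were divided over batches A and C, and the remaining Myeloid libraries were in batch C.

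Sequences are given first for the genes in which the identity of a transcript matters to the counts. They are GENCODE M21 transcripts on GRCm38. The 5 tRNAs with the highest mean CPM are all annotated on the minus strand, whose genes are the products of light-strand transcription. The capitals mark the anticodon, which decides the amino acid carried (proline, cysteine, glutamate, alanine and asparagine in this order).
mt-Tp: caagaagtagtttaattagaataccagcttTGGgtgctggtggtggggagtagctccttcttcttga
mt-Tc: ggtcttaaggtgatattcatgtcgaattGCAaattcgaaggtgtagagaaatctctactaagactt
mt-Te: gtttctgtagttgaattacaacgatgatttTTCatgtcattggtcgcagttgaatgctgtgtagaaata
mt-Ta: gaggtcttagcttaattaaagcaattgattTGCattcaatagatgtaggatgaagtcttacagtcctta
mt-Tn: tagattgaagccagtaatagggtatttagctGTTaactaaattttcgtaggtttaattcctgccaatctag
They lie at chrM:15356-15422, chrM:5192-5257, chrM:14071-14139, chrM:5018-5086 and chrM:5089-5159.

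The nuclear genome carries near-identical copies of mitochondrial genes. A search of all nuclear transcripts found 11 with at least 95% identity to an mt- transcript over at least 100 bases, all annotated pseudogenes. The most abundant was Gm29216 (chr1:24615706-24616197, minus strand, unprocessed pseudogene), which matches bases 1063 to 1545 of mt-Co1 (chrM:5328-6872) with 1 mismatch in 483 bases. The mismatch is A1066T, counted from the first base of mt-Co1, and is in capitals in the matching windows.
mt-Co1: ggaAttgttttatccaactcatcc
Gm29216: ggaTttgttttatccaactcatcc
The windows are chrM:6390-6413 and chr1:24616165-24616188. A read from any other place in the 483 bases fits both genes, so the split of counts between them rests on the authors' quantification. Some mt- genes also overlap one another. The last 43 bases of mt-Atp8 are the first 43 of mt-Atp6 (chrM:7927-7969), shown with the start codon of mt-Atp6 and the stop codon of mt-Atp8 in capitals.
mt-Atp8 and mt-Atp6: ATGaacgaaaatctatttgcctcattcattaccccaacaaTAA
mt-Nd4l and mt-Nd4 share 7 bases, and mt-Nd5 and mt-Nd6 share 14 bases on opposite strands. The library kit marks strand, but whether the authors' counting used it is not given in the sources used here. If it did not, reads of mt-Nd6 or of the minus-strand tRNAs cannot be told apart from reads of the opposite strand.

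The 13 mRNAs together took from 0.230% to 9.41% of all counts. MEP libraries had the highest share and Myeloid libraries the lowest. In the 4 control MEP pools (1, 3, 5 and 7) the share was 6.82%, 6.27%, 5.43% and 9.41%. In the 6 control Myeloid pools it ran from 0.326% to 0.566%, with a median of 0.474%. The lowest control MEP library was above every library of any other population, and the highest Myeloid library of either arm, at 0.814%, was below every library of any other population. Between them, the control shares were 3.56%, 3.49% and 4.53% in HSC (pools 3, 5 and 7), 2.16% to 4.38% in CLP (median 3.27%), 2.78% to 3.32% in GMP (median 3.06%), 1.13% to 2.15% in MSC (median 1.70%) and 0.934% to 2.56% in WBM (median 1.68%). By median the order was MEP, HSC, CLP, GMP, MSC, WBM and Myeloid. HSC overlapped with CLP, CLP with GMP, and MSC with WBM, whereas the other neighbours in this order did not overlap. These summed shares are a description without a test.

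**Figure D1:**
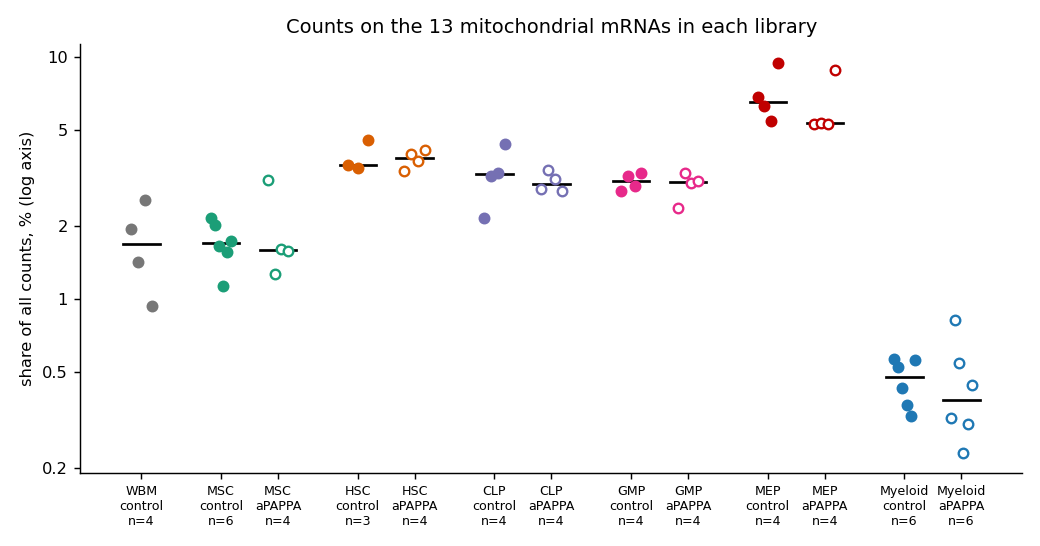
Share of all counts on the 13 mitochondrial mRNAs (y axis, percent, log axis) in each of the 57 libraries, by population and arm; filled points are control libraries, open points aPAPPA libraries and bars are group medians. The control medians run from 6.54% in MEP to 0.474% in Myeloid, and the 2 arms of each population overlap.

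Levels of different genes were compared per kilobase of annotated gene length (CPM per kb), with no allowance for fragment length or overlap between genes. The shortest mRNA genes were mt-Atp8 (204 bases) and mt-Nd4l (297 bases). The part of gene length and overlap in the ranking was not tested. Over all 57 libraries the median was highest for mt-Atp6 (5791 CPM per kb), mt-Co2 (5498), mt-Co3 (4822) and mt-Co1 (3773). The complex I mRNAs were lower, from 1830 CPM per kb for mt-Nd1 to 464 for mt-Nd5 and 258 for mt-Nd4l, and mt-Cytb stood between at 2064. The 3 mRNAs of complex IV and mt-Atp6 held the first 4 places by median in the control libraries of all 7 populations, and mt-Nd4l held the last place in all 7. mt-Nd6, the 1 mRNA on the minus strand and a complex I subunit, did not keep its place: it ranked 5th in control Myeloid (360 CPM per kb) and control WBM (1516), and 7th to 10th in the other 5 populations. Its counts were 3.33% to 5.91% of the summed plus-strand mRNA counts in control Myeloid and 2.50% to 10.9% in WBM. They were 1.44% to 1.70% in HSC and 1.6% to 1.80% in MEP, and these ranges do not overlap with those of Myeloid or WBM. mt-Nd4l was the 1 mRNA listed at 0 in some libraries, above 0 in 55 of 57.

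The mRNAs were then compared between populations, each control population against the mean of the other 5 sorted ones, in 1 edgeR fit of 27 control libraries with a batch term. In MEP all 13 mRNAs were higher. For mt-Nd2, a membrane subunit of complex I, the log2 difference was 2.20 (SE 0.271, adjusted p = 6e-07). The lowest was mt-Nd6 at 0.96 (SE 0.251, adjusted p = 0.00458). With the tRNAs mt-Tp and mt-Tn, 15 of the 23 mt- genes tested were higher and 0 lower, with a median log2 difference of 1.67 over the 23. Over all 19721 genes tested, 15.6% were called higher, and the median was -0.07. The median was 1.89 for the 7 complex I mRNAs, 1.24 for the 3 of complex IV and 1.86 for the 2 of complex V. The mt-Tn call was not stable. With edgeR it was lost without the low-count filter and without MEP control pool 1 or 7 or MSC control pool 3 or 5 (adjusted p = 0.0564 to 0.137). It was also lost with the pool as a block in limma's voom fit (adjusted p = 0.0597). mt-Tn had 1.73 to 3.49 CPM in control MEP and 1.18 to 2.77 CPM in control GMP, which overlap.

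The CPM of single libraries show the same ranking without a model. mt-Co1, the catalytic subunit of cytochrome c oxidase, had 18363, 17931, 14099 and 25727 CPM in control MEP pools 1, 3, 5 and 7. In HSC pools 3, 5 and 7 it had 10039, 10547 and 12812 CPM. Every control MEP library was above every other sorted control library for mt-Co1, and its log2 difference was 1.68 (SE 0.262, adjusted p = 1.59e-05). The same held for 10 of the 13 mRNAs (mt-Nd1, mt-Nd2, mt-Nd3, mt-Nd4, mt-Nd4l, mt-Nd6, mt-Cytb, mt-Co1, mt-Atp6 and mt-Atp8) and for mt-Tp, and for 4.13% of all genes tested. mt-Cytb, the catalytic core of complex III, had 6543, 5890, 5335 and 9084 CPM in MEP pools 1, 3, 5 and 7. Its next highest sorted control library was HSC pool 7, at 4477 CPM. Pool 7 was the highest of the 4 MEP libraries for both genes. Without it mt-Nd6 no longer passed (log2 difference 0.69, adjusted p = 0.0644), and the counts of mt- genes called without each library in turn ran from 13 to 16.

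In Myeloid, 10 of the 13 mRNAs were lower and no mt- gene was higher, and the 10 cover all 4 complexes. mt-Cytb had the largest difference, at -4.24 on the log2 scale (SE 0.584, adjusted p = 3.11e-06), followed by mt-Nd4, a complex I subunit, at -3.51 (SE 0.539, adjusted p = 1.27e-05). The other complex I mRNAs called were mt-Nd1, mt-Nd2 and mt-Nd3, and those of complexes IV and V were all 3 and both. mt-Nd5 (-0.71, SE 0.63), mt-Nd4l (-2.44, SE 1.0) and mt-Nd6 (-0.13, SE 0.417) did not pass, with adjusted p-values of 0.411, 0.0606 and 0.893. Over all genes tested 20.9% were called lower, and the median over the 23 mt- genes was -1.46 against -0.26 for all genes. mt-Nd3 did not pass with the nuclear copies added to the mt- genes (-0.86, adjusted p = 0.0724) or with relative log expression (RLE) scaling (-1.07, adjusted p = 0.0694), nor without MSC control pool 3, 5 or 17 (adjusted p = 0.114, 0.0993 and 0.0575).

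No batch held Myeloid beside the stem and progenitor populations, and Myeloid is tied to them only through MSC, which were sequenced in batches A and C. Batch C holds 3 control libraries of each. There mt-Cytb had 46.6, 51.2 and 141 CPM in Myeloid pools 15, 17 and 19 and 1147, 1614 and 1917 CPM in MSC of the same pools. Every MSC library was above every Myeloid library. mt-Nd6 had 191, 153 and 206 CPM in those Myeloid libraries and 115, 203 and 242 CPM in the MSC libraries, and the groups overlapped. Across both batches, 7 mRNAs (mt-Nd1, mt-Nd2, mt-Nd4, mt-Cytb, mt-Co2, mt-Co3 and mt-Atp6) were lower in every control Myeloid library than in every other sorted control library, as were 4.19% of all genes tested. In sorted bulk RNA, fewer mitochondria, fewer transcripts per mitochondrion and more RNA of other kinds cannot be told apart, nor can fewer cells of a type and less RNA per cell.

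**Figure D2:**
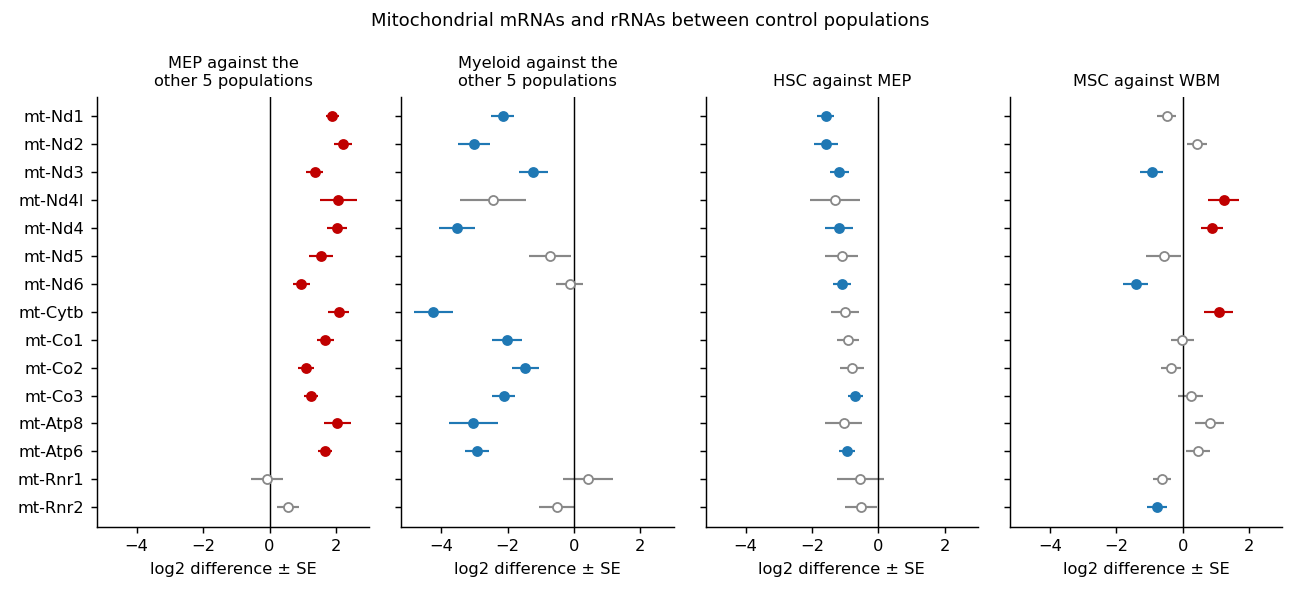
Log2 difference (x axis, points, with bars of 1 SE) of the 13 mRNAs and 2 rRNAs (y axis) in 4 comparisons of control libraries; filled points passed an adjusted p of 0.05 (red higher, blue lower) and open points did not. All 13 mRNAs were higher in MEP, 10 were lower in Myeloid, and neither rRNA passed in either.

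HSC, CLP and GMP had no mt- gene past the threshold against the other 5 populations with edgeR, of 23 tested. With unadjusted p-values under 0.05 there were 3 in HSC, 2 in CLP and 1 in GMP. Of all genes tested, 19.8% were called in HSC (13% higher and 6.88% lower), 10.9% in CLP (6.4% higher and 4.55% lower) and 22.7% in GMP (13.3% higher and 9.38% lower). With the mouse pool as a block in limma's voom fit, the counts were 5 in HSC, 0 in CLP and 3 in GMP. Without the libraries rich in 45S precursor they were 4, 4 and 5, so 0 does not hold across these settings. In HSC the 13 mRNAs had log2 differences from -0.38 (mt-Nd6) to 0.84 (mt-Cytb).

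HSC were also set directly against each progenitor within batch A, where 20 mt- genes were tested. Against MEP, 11 were lower in HSC and 0 higher: mt-Nd1, mt-Nd2, mt-Nd3, mt-Nd4, mt-Nd6, mt-Co3, mt-Atp6 and the tRNAs mt-Ta, mt-Tn, mt-Tc and mt-Tp. Of all 16084 genes tested, 32% were called and 13.1% were lower in HSC. mt-Nd1 differed by -1.58 on the log2 scale (SE 0.253, adjusted p = 0.000184) and mt-Tp by -1.94 (SE 0.282, adjusted p = 7.82e-05). mt-Co1 differed by -0.91 (SE 0.34) and did not pass (adjusted p = 0.0521). Leaving out CLP control pool 1, a library of neither group that enters the shared estimate of spread, raised the count to 17. The mt-Nd4 call was not stable: it was lost under 14 alternatives and kept under 10, with each library left out in turn among them. The mt-Co3 call was lost under 6 and the mt-Tn call under 3, whereas the rest held under all 24.

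Against CLP, 3 tRNAs were lower in HSC (mt-Ta, mt-Tc and mt-Te), where 31.2% of all genes were called and 14.6% were lower. Against GMP 2 were lower (mt-Tn and mt-Tc), where 33.7% were called and 13.1% were lower. No mRNA or rRNA passed in either. Both counts fell to 0 with the pool as a block. The count against CLP was also 0 without HSC control pool 3, without HSC control pool 5 or without CLP control pool 1, and that against GMP was 0 without GMP control pool 5 and 1 without GMP pool 1 or 7, HSC pool 3 or 5, or any 1 of the 4 MEP controls. The 13 mRNAs differed between HSC and GMP by -0.26 to 0.33 on the log2 scale. The tRNA calls depend on few counts. Over the 3 control HSC libraries mt-Ta had 22 counts in all, mt-Tc 37, mt-Te 26 and mt-Tn 15. Of the 78 mt-Te counts in control CLP, 60 came from pool 1.

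MSC are the population in which Pappa was high: 218 to 676 CPM in control libraries, with medians under 1 CPM in every other control population. Their mitochondrial pattern was mixed. Against the other 5 populations, mt-Nd4 (0.71, SE 0.266, adjusted p = 0.0283) and mt-Cytb (0.68, SE 0.282, adjusted p = 0.0469) were higher, among 29.2% of all genes, and the tRNAs mt-Tn, mt-Tc and mt-Tp were lower, among 21.2%. That is 5 of 23 called against 50.4% of all genes. The 2 mRNAs were not stable. In CPM every control MSC library was below every control HSC and MEP library for both genes. MSC overlapped with CLP and GMP and were above every control Myeloid library. mt-Cytb had 1147 to 2930 CPM in MSC, 3216 to 4477 in HSC and 46.6 to 312 in Myeloid. Batch A holds no Myeloid library, so the mean of the others there leaves Myeloid out. Within batch A alone the signs turned, to -0.17 for mt-Nd4 (adjusted p = 0.715) and -0.35 for mt-Cytb (adjusted p = 0.421). With the pool as a block 1 mt- gene passed. The count was 1 without MSC control pool 3, 9 without MSC control pool 7, and 3 without MSC pool 15 or 19, HSC pool 7, or Myeloid pool 9, 11, 13 or 17.

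MSC were set against WBM as well (10 control libraries, with pools 5, 7 and 15 in both groups, batch as a term, 21 mt- genes tested). 3 mRNAs were higher in MSC: mt-Nd4l (1.23, SE 0.468), mt-Cytb (1.08, SE 0.427) and mt-Nd4 (0.88, SE 0.328), with adjusted p-values of 0.0416, 0.0491 and 0.0382. mt-Nd3, mt-Nd6, mt-Rnr2 and the tRNAs mt-Ti, mt-Tn, mt-Tc and mt-Te were lower. Several of these calls were not stable over the 19 alternatives. mt-Nd4l and mt-Nd3 were each lost under 12, mt-Rnr2 under 11, mt-Cytb under 8, mt-Nd4 under 6 and mt-Nd6 under 3. The tRNA calls were lost under 1 at most. In CPM the groups overlapped for mt-Nd4l (7.25 to 144 in MSC, 12.95 to 34.4 in WBM) and for mt-Cytb (1147 to 2930 and 224 to 1861). Of all 17169 genes tested 23.1% were higher and 26.1% lower. mt-Nd6 differed most among the mRNAs, by -1.42 (SE 0.368, adjusted p = 0.00531). It had 474, 657, 924 and 917 CPM in WBM pools 1, 5, 7 and 15 and 392, 398, 410, 115, 203 and 242 CPM in MSC pools 3, 5, 7, 15, 17 and 19, so every MSC library was below every WBM library. With the pool as a block 3 mt- genes passed in place of 10, from the pools present in both groups. The count was 5 without WBM control pool 5, WBM control pool 15 or MSC control pool 19. The summed level of Myeloid markers was 41872 to 99181 CPM in WBM and 849 to 4039 CPM in MSC. For erythroid markers it was 13129 to 167680 CPM in WBM and 706 to 2152 CPM in MSC. For plasma cell markers it was 1047 to 4896 CPM in WBM and 652 to 41897 CPM in MSC. The part of these markers in the differences was not tested.

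The rRNAs did not follow the mRNAs. mt-Rnr1 and mt-Rnr2 together took 0.0713% to 0.570% of counts over the 57 libraries, a narrower range than that of the mRNAs. In MEP, where every mRNA was higher, mt-Rnr2 differed by 0.55 (SE 0.324, adjusted p = 0.218) and mt-Rnr1 by -0.07 (SE 0.474, adjusted p = 1). In Myeloid they differed by -0.51 (SE 0.532, adjusted p = 0.5) and 0.42 (SE 0.753, adjusted p = 0.734). The number of rRNA counts per mRNA count was 0.0315 to 0.0362 in control MEP and 0.243 to 0.870 in control Myeloid. mt-Rnr2 had 1868, 1569, 1518 and 2662 CPM in MEP pools 1, 3, 5 and 7, and 734 to 2780 CPM (median 1135) in Myeloid, so these groups overlapped.

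Some libraries stood apart in rRNA. mt-Rnr2 had 3868 CPM in CLP control pool 1 against 1426 to 1840 in the other 3 control CLP libraries, 2780 in Myeloid control pool 11 and 3480 in Myeloid aPAPPA pool 10. CLP control pool 1 stood apart in mRNAs as well, with 390 CPM of mt-Cytb (2488 to 4107 in the other 3) and 9579 CPM of mt-Co2 (4679 to 6087). The CLP library and both Myeloid libraries are also among the 4 libraries with over 5% of counts on the nuclear 45S precursor. In the fourth, MSC control pool 7, mt-Rnr2 was the lowest of its group, at 553 CPM. Across the 57 libraries Spearman's rho between the 45S share and the rRNA to mRNA ratio was 0.50, as a description of libraries that share pools and batches. The part of the 45S share in the rRNA values was not tested. The labels do not say whether rRNA was removed or polyadenylated RNA selected, so these values are levels in the libraries and not in the cells.

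The 20 tRNAs gathered 24543 counts in all 57 libraries, at 0.494 to 97.1 CPM summed per library. No tRNA was above 0 in every library. The 6 minus-strand genes (mt-Tp, mt-Tc, mt-Te, mt-Ta, mt-Tn and mt-Ty) held 87.8% of these counts and the 14 plus-strand genes the rest, and in 56 of 57 libraries the minus-strand sum was the larger. mt-Tp alone, the gene nearest to the control region on that side, held 51.0% of the counts of all libraries together, of which 3962 of 12514 came from MEP control pool 7 and GMP aPAPPA pool 6. Per library its share had a median of 51.6%, and it was the most counted tRNA in 52 of 57. It was at 0 in MSC aPAPPA pool 16 (10 tRNA counts) and Myeloid aPAPPA pool 16 (37), and at 14.6% in CLP control pool 1, 15.2% in Myeloid aPAPPA pool 18 and 19.3% in WBM control pool 15. The 6 genes are spread over 3 places on the circle: mt-Ta to mt-Ty between mt-Nd2 and mt-Co1, mt-Te beside mt-Nd6, and mt-Tp beyond mt-Cytb. Mature tRNAs are short and folded, and standard libraries capture them poorly, so these counts describe the fragments that were captured.

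**Figure D3:**
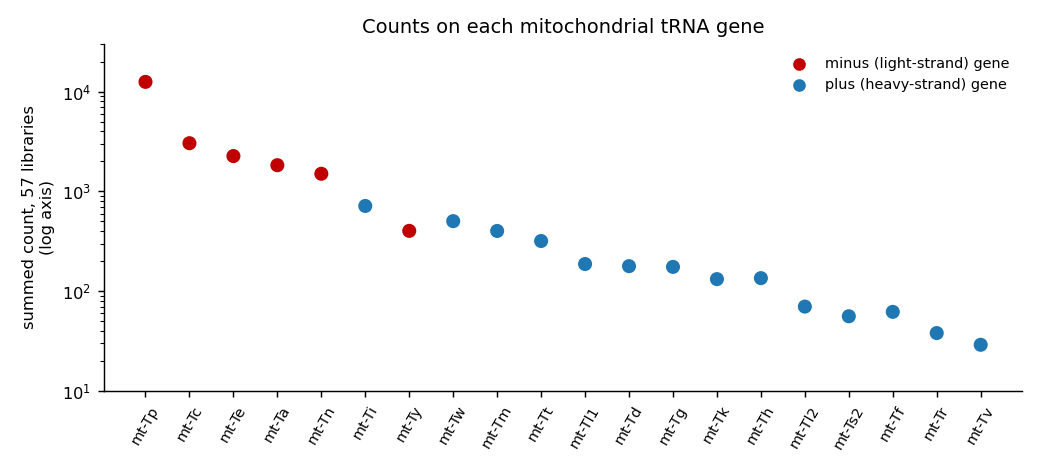
Count summed over the 57 libraries (y axis, log axis) of each of the 20 mitochondrial tRNA genes (x axis, in order of mean CPM), with minus-strand genes in red and plus-strand genes in blue. The first 5 genes by mean CPM are all on the minus strand, led by mt-Tp with 12514 counts.

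mt-Tp followed the mRNAs in MEP. It had 46.5, 39.2, 36.3 and 61.5 CPM in MEP control pools 1, 3, 5 and 7, against 11.2 to 15.7 CPM in HSC, 5.20 to 17.0 in CLP, 11.9 to 16.9 in GMP, 1.04 to 9.09 in MSC and 1.33 to 4.59 in Myeloid. Every MEP library was above all the others, and the log2 difference was 2.11 (SE 0.364, adjusted p = 6.11e-05). In control MSC mt-Tp was above 0 in all 6 libraries, with 148 counts in all, 79 of them in pool 17. The other tRNAs called there, mt-Tn and mt-Tc, were at the limit of detection. mt-Tn was at 0 in 4 of 6 control MSC libraries with 11 counts in all, and mt-Tc was at 0 in 2 with 15 counts. Their fitted differences from the other populations (-6.07 for mt-Tn, SE 2.26, adjusted p = 0.0275) depend on few counts and are not a fold change that can be read. In WBM, by contrast, mt-Tn had 282 counts over 4 libraries (1.49 to 2.80 CPM) and mt-Tc 550 (3.20 to 5.96 CPM).

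The nuclear copies were read beside their mt- genes. Gm29216 was above 0 in all 57 libraries, at 46.8 to 2743 CPM, and 5 copies had a mean above 2 CPM: Gm29216 (696 CPM), Gm10925, a copy of mt-Atp6 (26.3), Gm28438 of mt-Nd3 (10.1), Gm28661 of mt-Co2 (3.51) and Gm28437 of mt-Co3 (2.34). The summed count of the copies, which is not part of the mRNA count, was equal to 0.105% to 15.2% of the count on the 13 mRNAs. The number of Gm29216 counts per mt-Co1 count ran from 0.00297 to 0.673. In the 4 control GMP pools it was 0.00595 to 0.0329 in 3 and 0.245 in pool 5.

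Where Gm29216 was high relative to mt-Co1, mt-Co1 was low relative to mt-Co2, the next subunit of the same complex. The mt-Co1 to mt-Co2 ratio of counts ran from 0.251 in CLP control pool 1 to 2.80, and was 1.005 in GMP control pool 5 against 2.34 to 2.66 in the other 3 control GMP pools. Across the 57 libraries Spearman's rho between both ratios was -0.94. Both contain mt-Co1, and the libraries share pools and batches. Ratios without mt-Co1 moved too: rho with Gm29216 per mt-Co1 was -0.86 for mt-Nd5 per mt-Nd3 and 0.88 for mt-Atp6 per mt-Atp8. With the mRNA share of the library, which separates the populations, rho was -0.78. mt-Atp6 and mt-Atp8 overlap by the 43 bases shown above. Adding the copies to their mt- genes left 15 mt- genes called in MEP and 9 in Myeloid.

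**Figure D4:**
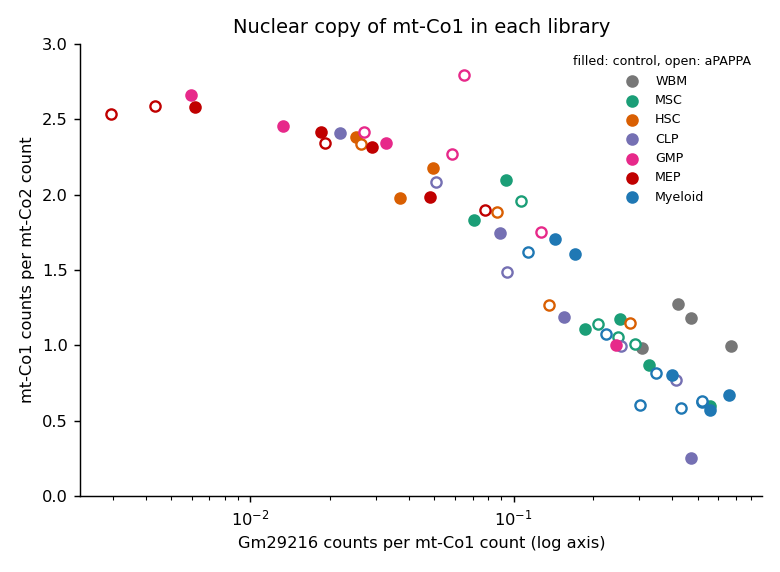
Counts of mt-Co1 per count of mt-Co2 (y axis) against counts of the nuclear copy Gm29216 per count of mt-Co1 (x axis, log axis), with 1 point for each of the 57 libraries, coloured by population, filled for control and open for aPAPPA. The y values fall from above 2 to below 1 as the x values rise from 0.00297 to 0.673.

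The antibody comparison asks whether blocking PAPP-A changed the cells of the marrow. No mt- gene passed in any population with edgeR's test: 0 of 21 tested in Myeloid, 0 of 21 in MEP, 0 of 22 in GMP, 0 of 17 in CLP, 0 of 18 in HSC and 0 of 16 in MSC. None had an unadjusted p under 0.05 either, and DESeq2 called 0 in each. Few genes of any kind passed: 0.0313% of all genes tested in MSC (0.0125% higher and 0.0188% lower), 0.0069% in HSC and 0% in the other 4 populations. No mt- gene tested had arms that did not overlap in CPM in any population, against 6.57% of all genes in HSC, 2.48% in MEP, 1.44% in GMP, 0.663% in MSC, 0.559% in CLP and 0.0595% in Myeloid.

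mt-Co1 shows the spread. In MSC it had 4834, 3763, 4033, 1565, 2708 and 3498 CPM in control pools 3, 5, 7, 15, 17 and 19 and 7284, 2474, 3003 and 3042 CPM in treated pools 8, 16, 18 and 20. The highest library was treated pool 8 of batch A, and the other 3 treated libraries, all of batch C, lay within the control range. The difference was 0.25 (SE 0.237, adjusted p = 0.999). In MEP it had 14773, 15779, 13634 and 25228 CPM in treated pools 2, 4, 6 and 8, within the control range except for pool 6 at the low end, and the difference was -0.13 (SE 0.246, adjusted p = 0.999). In the other 4 populations its difference was -0.23 (HSC), -0.14 (CLP), 0.01 (GMP) and -0.20 (Myeloid), with SEs from 0.183 to 0.364.

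The direction of the 13 mRNAs was shared within some populations without passing. In MEP 13 of 13 differences were below 0 (-0.31 to -0.13, median -0.18, with 0.01 over all genes), and without control pool 7 the sign of mt-Co1 turned (0.07). In GMP 12 of 13 were below 0 (-0.21 to 0.01, median -0.13, with 0.03 over all genes). In MSC 12 of 13 were above 0 (-0.26 to 0.59, median 0.23, with -0.03 over all genes). These genes come from common precursors and are not independent. The median SE of an mRNA's difference was 0.385 in CLP, 0.261 in Myeloid, 0.254 in HSC, 0.244 in MEP, 0.225 in MSC and 0.223 in GMP. For mt-Co1 in MSC, 2 SEs on each side span -0.22 to 0.73, and in MEP -0.62 to 0.37. A p that misses the threshold does not show that the arms were equal. The response did not differ detectably between populations: 0 of 24 mt- genes passed a test of treatment by population over 53 libraries (0 with an unadjusted p under 0.05), with 0.0511% of all 21525 genes called.

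**Figure D5:**
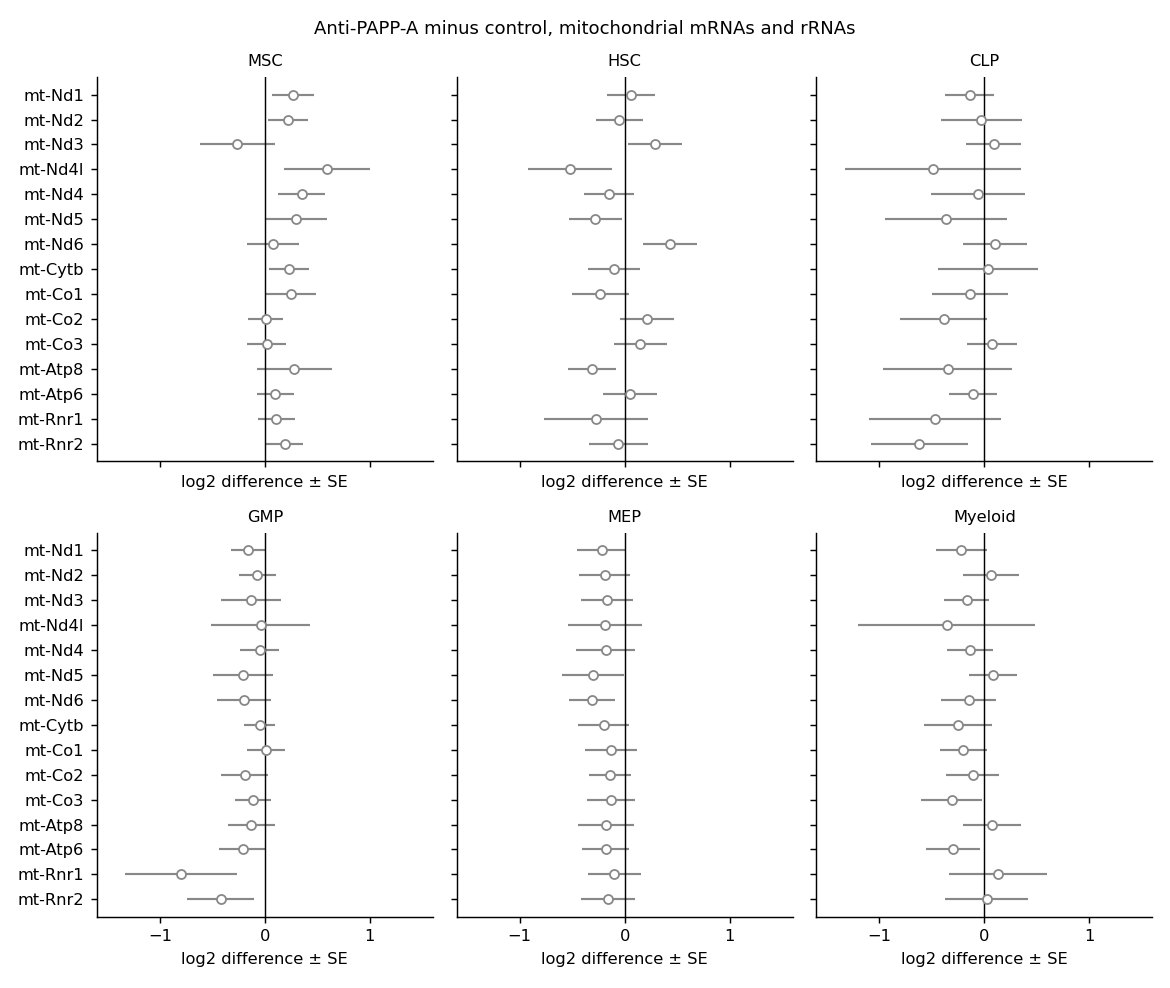
Log2 difference of treated minus control libraries (x axis, points, with bars of 1 SE) for the 13 mRNAs and 2 rRNAs (y axis), with 1 panel for each of the 6 sorted populations. All points are open since none passed, and in MEP all 13 mRNAs lie left of 0.

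The nuclear genes that the mitochondrial transcripts work with were read from fixed lists. The lists held respiratory chain subunits, mitochondrial gene expression factors, large-subunit proteins of the mitochondrial ribosome (Mrpl genes) and mitochondrial biogenesis genes. Small-subunit (Mrps) genes were not in the lists. In MEP, where 15.6% of all genes were higher and 12.7% lower with a median log2 difference of -0.07, these lists stood as follows. Of 56 genes of mitochondrial gene expression 28 were higher and 0 lower, with a median log2 difference of 0.70. Of 49 large-subunit mitochondrial ribosomal protein genes 22 were higher and 1 lower, with a median of 0.61. Of 36 nuclear complex I subunits 10 were higher (median 0.32), of 4 of complex II all 4 (0.65), of 9 of complex III 6 (0.86), of 11 of complex IV 4 (0.37) and of 16 of complex V 8 (0.45), with 0 lower in each. Of 16 biogenesis genes 10 were higher and 0 lower (0.99). Lrpprc, which binds and stabilises mitochondrial mRNAs, differed by 1.38 (SE 0.165, adjusted p = 3.71e-07), from 120 to 151 CPM in MEP and 68.7 to 80.2 CPM in HSC. Hspd1, a mitochondrial chaperone, differed by 2.14 (SE 0.184, adjusted p = 2.41e-09).

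In Myeloid 20.9% of all genes were lower and 16.3% higher (median -0.26). Of the 56 gene expression genes 27 were lower and 1 higher (median -0.94), and of the 16 biogenesis genes 7 and 1 (-0.85). Of the 49 large-subunit ribosomal protein genes 15 were lower and 2 higher (median -0.58). Of complex II 2 of 4 nuclear subunits were lower, and of complex III 4 of 9, with 0 higher in each. For complex V, 7 of 16 were lower, with Atp5b, the catalytic subunit, at -1.99 (SE 0.316, adjusted p = 1.8e-05). For complex IV, whose 3 mt- mRNAs were all lower, 1 of 11 nuclear subunits was lower and 1 higher, Cox5a at 1.40 (SE 0.47, adjusted p = 0.0206), with a median of 0.12. For complex I, 9 of 36 were lower and 3 higher, with a median of 0.15 against -2.15 for its 7 mt- mRNAs. In MSC, where 21.2% of all genes were lower and 29.2% higher (median 0.12), the nuclear subunits called lower were 10 of 11 of complex IV, 12 of 16 of complex V, 7 of 9 of complex III, all 4 of complex II and 15 of 36 of complex I, with 0 higher in each. The 13 mt- mRNAs had a median of -0.16 there. In GMP, where no mt- mRNA passed, 13.3% of all genes were higher and 9.38% lower (median 0.00). Higher were 8 of 36 nuclear complex I subunits (median 0.43), 2 of 4 of II (0.53) and 7 of 9 of III (0.93). For complexes IV and V, 4 of 11 (0.59) and 7 of 16 (0.51) were higher, with 0 lower in any complex. Of the 56 gene expression genes 16 were higher and 1 lower (0.43), and of the 16 biogenesis genes 7 and 1 (0.51). Of the 49 large-subunit ribosomal protein genes 16 were higher and 1 lower (0.47). No gene of these lists passed in any treatment comparison, at 0 in all 6 populations. In HSC the list medians were above 0 without passing, with -0.00 over all genes and -0.05 for the 13 mt- mRNAs. They were 0.52, 0.37, 0.47, 0.55 and 0.49 for complexes I to V. For large-subunit ribosomal proteins the median was 0.40, for biogenesis 0.15 and for gene expression 0.02. In the other 5 populations the list medians ran from -0.19 to 0.11. These shifts were not tested as sets.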

How the data were processed

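Per the submitters' processing notes, FastQC 0.11.5, Salmon and mm10 were used. The authors deposited Salmon's expected counts for each gene in each library, already whole and unscaled. Repeated lines per gene and library, which never differed, were read once. Libraries were strand-specific (NEBNext Ultra II Directional), per the labels' protocols. No source used here gives the Salmon version, its annotation or its strand setting.

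CPM are counts per 1000000 counts of the library. Tests used edgeR 4.0.16 in R 4.3.3: filterByExpr, TMM scaling, the robust quasi-likelihood fit over all genes, and Benjamini-Hochberg adjustment at 0.05 over all genes tested. Adjusted p-values in the text are from this test. Batch was a term where a comparison spanned batches. Treatment was tested within each population, and populations among control libraries. The alternatives were DESeq2 1.42.0, RLE, unscaled totals, scaling on nuclear genes, no low-count filter, added nuclear copies, left-out libraries, single batches, and the mouse pool as a block (limma 3.58.1 voom, or a fixed term). Populations that share a pool number came from the same mice, so pools pair populations and never arms. The estimated correlation within pools was 0.099 in the voom fit of the control populations and 0.049 in that of treatment by population. Nuclear copies were found with BLAST 2.17.0. The fits were checked on simulated counts. P-values measure the spread between libraries within groups. Within 1 population each library came from its own pool, so in the treatment comparisons this is a spread between pools. In fits over several populations, libraries of the same pool entered as separate unless the pool was a block. Rows without a gene name numbered 0, and 0 sample names were unmatched.

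All 13 mRNAs and both rRNAs were named, with tRNAs by mean CPM or by passing the test (at most 6 per comparison), and up to 4 nuclear list genes with the smallest p per list and comparison. The members and lists were chosen with earlier results of these data known.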

Additional observations from a re-analysis of the deposited data

Results flagged for a closer look

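Within groups of 4 or 6 libraries, 23 values of mt- genes or their summed measures, over 144 group checks, lay farther from the rest of their group than the 95% critical value of Dixon's gap test; chance alone gives about 1 in 20. The checks overlap, since several measures come from the same counts, and they centre on few libraries.

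MEP aPAPPA pool 8 had 8.82% of counts on the mt- mRNAs (5.29% to 5.35% in the other 3), with 8516 CPM of mt-Cytb and 52.2 CPM of mt-Tp. MSC aPAPPA pool 8, of the same mice and the 1 treated MSC library of batch A, had 7284 CPM of mt-Co1, 3815 CPM of mt-Cytb and an mt-Co1 to mt-Co2 ratio of 1.96. CLP control pool 1 had an rRNA share of 0.510%, 0.236 rRNA counts per mRNA count, 3868 CPM of mt-Rnr2 and, as its group's lowest, 5.20 CPM of mt-Tp. GMP control pool 1, from the same mice, had an rRNA share of 0.259%, 0.0932 rRNA counts per mRNA count and 1798 CPM of mt-Rnr2.

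Myeloid aPAPPA pool 10 had an rRNA share of 0.570%, 1.77 rRNA counts per mRNA count and 3480 CPM of mt-Rnr2, and Myeloid control pool 11 had 0.452% and 2780 CPM. GMP control pool 5 had 0.245 Gm29216 counts per mt-Co1 count and 880 CPM of mt-Nd6. mt-Nd6 was 4.23% of the plus-strand mRNA count in CLP aPAPPA pool 2 (2.04% to 2.23% in the other 3). Summed tRNA was 15.4 CPM in MSC control pool 5 and 37.0 CPM in WBM control pool 7. The 45S precursor was above 5% in CLP control pool 1, Myeloid control pool 11 and Myeloid aPAPPA pool 10. In GMP control pool 1 it was 4.00%, against 0.0364% to 0.0827% in control GMP pools 3, 5 and 7. Being under 5%, that library stayed in the fits without 45S-rich libraries. The part of the 45S precursor in these values was not tested.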

How the results depend on the processing

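The counts of mt- genes called are given in place of the reported ones, in each case with the cause not tested. Against a reported 5 in MSC: 10 with unscaled totals, 3 with nuclear scaling, 8 without shallow libraries, 12 without 45S-rich libraries (added after seeing the data, as were Myeloid in batch B and MSC against WBM in batch A), 10 within batch A and 1 with the pool block. Against 0 in HSC: 5 with unscaled totals, 1 without shallow libraries, 4 without 45S-rich libraries and 5 with the block. Against 0 in CLP: 1 without the low-count filter, 3 unscaled, 1 with nuclear scaling, 2 without shallow libraries, 4 without 45S-rich libraries and 1 in batch A. Against 0 in GMP: 2 without the filter, 5 without 45S-rich libraries, 2 in batch A and 3 with the block. HSC against CLP (3) gave 0 without 45S-rich libraries and 0 with the block, HSC against GMP (2) gave 1 unscaled and 0 with the block, HSC against MEP (11) gave 17 without 45S-rich libraries, and MSC against WBM (10) gave 3 with the block. The block changed no other count by over 1.5 times.

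Leaving out 1 library at a time gave 1 to 9 in MSC, 0 to 2 in HSC, 0 to 3 in CLP, 0 to 1 in GMP, 13 to 16 in MEP, 9 to 11 in Myeloid, 0 to 3 for HSC against CLP, 0 to 3 against GMP, 8 to 17 against MEP and 5 to 9 for MSC against WBM. The treatment counts stayed at 0 under every alternative run except 1 in HSC without HSC aPAPPA pool 8 (mt-Nd4l). In MEP (15) and Myeloid (10) no alternative moved the count by over 1.5 times.

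Of single genes, mt-Nd4 (-0.17) and mt-Cytb (-0.35) reversed in MSC within batch A. The uncalled treatment difference of mt-Co1 changed sign in GMP, to -0.02 without the filter, -0.01 with RLE, -0.01 with DESeq2 and -0.12 to 0.07 without single libraries, and it ran from -0.37 to 0.17 in CLP (0.17 without control pool 7) and from -0.40 to 0.07 in MEP (0.07 without control pool 7) without single libraries. Group medians of the mRNA share moved by less than 1 SD under all 3 other ways of counting. Unscaled totals moved the median log2 difference of all genes in Myeloid from -0.258 to -0.667 and the share of higher calls from 43.7% to 30.2%. That share rose from 65.3% to 80.4% in HSC, from 58.5% to 86.3% in CLP, from 61.1% to 72.2% for HSC against GMP and from 59% to 71.6% for HSC against MEP with unscaled totals. With RLE it was 45.4% in place of 58.7% in GMP and 70.8% in CLP, and with nuclear scaling 77.5% in CLP. No comparison of Myeloid was possible within batch A, and the other populations were set there against a mean without Myeloid. Depth limits the tRNAs most: 3 counts are 0.0239 to 27.9 CPM across libraries.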

Other observations

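The same pools ranked high in several populations. Of the 6 control groups of batch A that held pool 7, it had the highest mt- mRNA share in 5: 2.56% in WBM, 4.53% in HSC, 4.38% in CLP, 3.32% in GMP and 9.41% in MEP. The exception was MSC, where pool 7 (1.66%) was the lowest of 3, in a library with 14.6% of its counts on the 45S precursor. Among the treated groups of batch A, pool 8 was highest in HSC (4.13%) and MEP (8.82%), and second in GMP (3.08%). It was the lowest of 4 in CLP (2.79%). Pool 4 was highest in CLP (3.42%) and GMP (3.31%) and second in HSC (3.97%) and MEP (5.35%). Pools pair populations by mice and, as far as the labels say, by nothing else, and no test was made of this order, which was noticed in the data.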
